A study of Mus musculus with 12 samples.

Results

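The expression of 9 genes that are commonly used to name macrophages as M1 or M2 was examined in blood monocytes (MNCs) and in Kupffer cells (KCs), which are macrophages resident in the liver. The 9 genes, Retnla, Chi3l3, Arg1, Nos2, Mrc1, Cd163, Ccl17, Ccl22 and Ccl24, were chosen by name, and all 9 were among the 248 inflammation-related genes tested on the panel. 6 MNC samples and 6 KC samples came from Balb/C mice, with no treatment, transgene or other genetic change named for either group and no age given in the labels. Each sample was a pool of sorted cells, from 5 animals by the labels, and 100 ng of total RNA was hybridised in 1 lane. Both cell types were sorted magnetically for F4/80, which marks mouse macrophages at their surface. The blood was separated on a density gradient, whereas the liver was perfused and digested with collagenases first, so tissue and isolation procedure cannot be told apart. p-values measure the spread between the 6 pools of each group. Where samples are listed at the background, described below, that spread is partly or wholly that of negative controls and not of the gene.

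Macrophages change their programme with the signals around them. M1, or classical, activation follows interferon gamma and bacterial products and is marked by Nos2, the inducible nitric oxide synthase. M2, or alternative, activation follows interleukin-4 and interleukin-13, which act through the transcription factor STAT6, and is marked in the mouse by the secreted proteins Retnla and Chi3l3, by Arg1, which competes with Nos2 for arginine, by the scavenger receptors Mrc1 and Cd163, and by the chemokines Ccl17, Ccl22 and Ccl24. These are poles of a continuous range, and 1 gene does not define a state.

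The 4 members higher in KCs were Arg1, Cd163, Nos2 and Mrc1, and the 4 lower in KCs were Retnla, Ccl24, Chi3l3 and Ccl17 (limma, adjusted p under 0.05). Ccl22 did not pass the test. On the panel as a whole 56.5% of the 248 genes passed it, 35.1% higher and 21.4% lower in KCs. The median log2 fold change of the 9 genes, KC over MNC, was -0.65, beside 0.05 over all genes tested. With 4 genes called on each side this median is the value of Ccl22, and it gives no direction for the set. By the listed values Ccl11, at the background in all samples of both groups, was at -0.64. Ccl22 was at -0.19 with the background multiplied by the lane factor and at -0.02 with 1 common floor, both described below. By the listed values 5 of the 9 genes, Arg1 higher in KCs and Retnla, Chi3l3, Ccl17 and Ccl24 lower, had no overlap between the groups, as had 41.5% of the panel (25.8% higher and 15.7% lower in KCs). For Ccl17 this depends on how the background is listed. All 6 KC samples were at it, and the groups overlap where it is raised as described below. M2-associated genes were found in both directions, and Nos2, the M1 gene, was higher in the same cell type as Arg1. In these bulk samples a smaller share of cells that express a gene and less RNA of it per cell cannot be told apart.

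**Figure D1:**
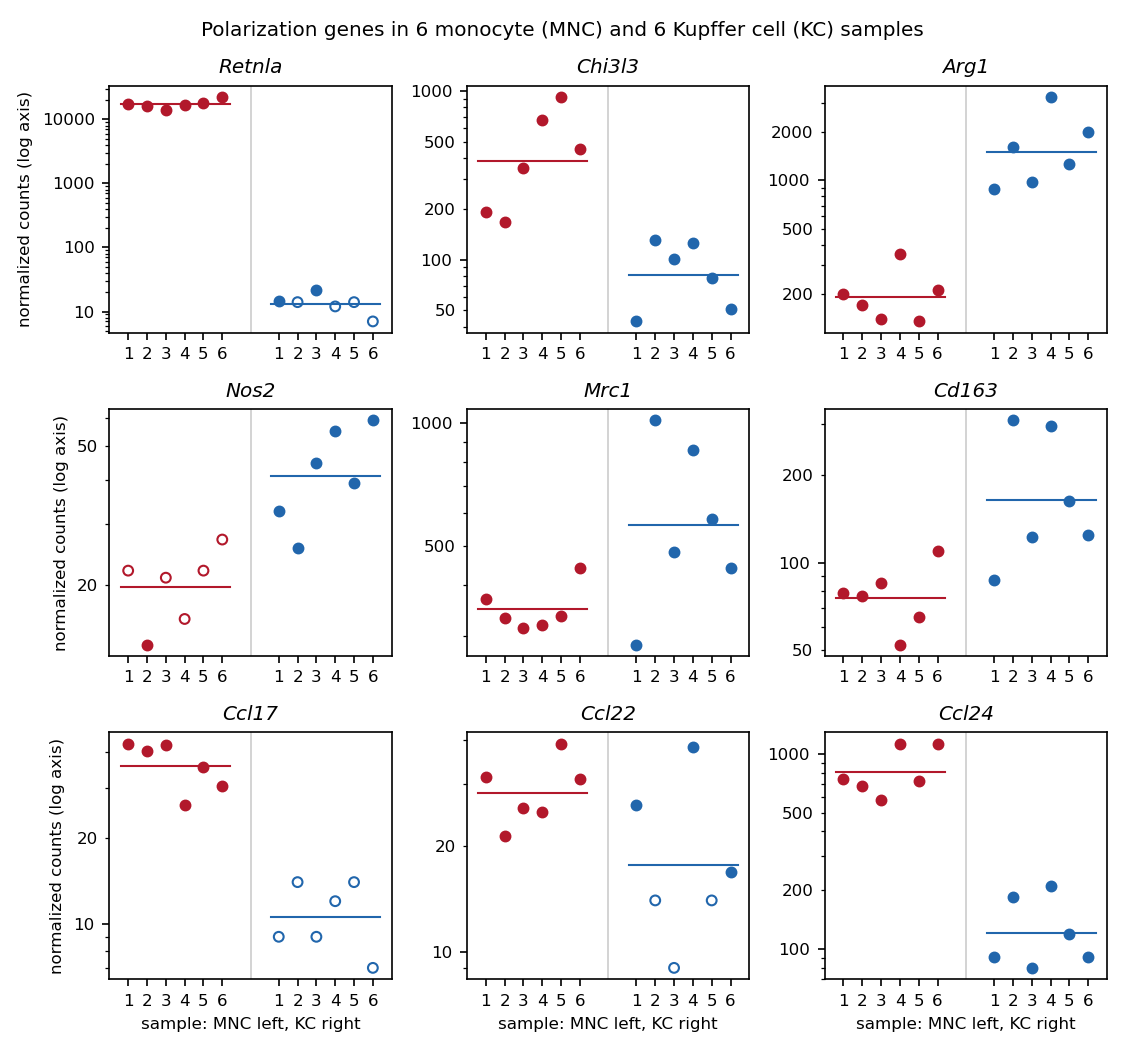
Normalized counts (log axis) of the 9 genes in the 6 MNC samples (red, left) and the 6 KC samples (blue, right) by sample number. Open circles are samples listed at the background of their lane and lines are geometric means of value + 1. By the listed values Retnla, Chi3l3, Arg1, Ccl17 and Ccl24 do not overlap between the cell types, whereas Nos2, Mrc1, Cd163 and Ccl22 do. Ccl17 overlaps as well where its KC samples take the higher of the listed background and the background multiplied by the lane factor.

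The values are normalized counts, that is, counted reporter molecules multiplied by 1 factor per lane. A gene under the highest negative control of its lane is listed at that control's count without the factor, which was 5 to 27 in MNCs and 7 to 14 in KCs. With the factor this background would be 5.63 to 15.7 in MNCs and 11.7 to 30.4 in KCs. Over the 248 genes 158730 to 339100 molecules were counted per MNC sample and 80944 to 140029 per KC sample. Summed levels of marker genes of other cells are given by group, and in some lists single genes did not change or went the other way. 10 genes of proteins made by hepatocytes were all above the background in all 6 KC samples, with a summed level of 4497 to 15348 normalized counts, and 7 of them (C8a, C8b, C9, Hc, Kng1, Crp and Masp1) were at the background in all 6 MNC samples, where the sum was 63.1 to 270. 8 genes of T and NK cells (Ccl5, Cd4, Cd40lg, Fasl, Il2, Lta, Ltb and Tnfsf14) summed to 10496 to 36905 in KCs, with KC sample 1 highest, and to 4338 to 8415 in MNCs, none of them at the background in all samples of either group. Ccl5 made the largest part of these sums, with a mean of 14244 in KCs and 3906 in MNCs. Of the 8 genes 5 were called higher in KCs, and Cd4, Il2 and Ltb did not pass. 5 genes typical of monocytes, all above the background, summed to 2511 to 4235 in KCs and to 7135 to 10653 in MNCs. Ccr2, 1 of these 5, had a log2 fold change of -0.16 and did not pass the test (adjusted p = 0.508). 5 immediate-early and stress genes that isolation can induce summed to 13944 to 26767 in KCs and to 5167 to 8435 in MNCs. Myc among them went the other way, at -0.41, and did not pass (adjusted p = 0.0607). 2 platelet genes on the panel summed to 24 to 76.1 in KCs and to 159 to 313 in MNCs. The fall was that of Alox12 (log2 fold change -3.35), whereas Tbxa2r was at 0.32 and did not pass. 3 granulocyte genes, Ccr3 among them, summed to 144 to 363 in KCs and to 101 to 304 in MNCs. Ccr3 was higher in KCs (2.48), whereas Cxcr2 (-0.26) and Cxcr1 (-0.76, at the background in all 6 KC samples) went the other way. Of the macrophage genes that are not members, C1qa and C1qb, subunits of complement C1q, were lower in the samples labelled KC than in those labelled MNC, at 713 ± 319 against 3064 ± 931 and at 1094 ± 505 against 3654 ± 1046 normalized counts (SD, n = 6 samples each). Trem2, a lipid receptor of tissue macrophages, was at the background in all 6 KC samples and in 4 of 6 MNC samples. Their part in the differences described here was not tested.

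Promoter sequences were examined because the M2 programme is driven through STAT6, which binds palindromes of TTC and GAA with 4 bases of any kind between them, whereas other proteins of the STAT family bind TTCNNNGAA, with 3 bases between. Both motifs read the same on either strand, and the matches did not overlap. 6 of the 9 genes had a promoter, 250 bases before to 50 from the start on, in the table of RefSeq promoters of GRCm38.p6 used here. Arg1, Nos2 and Ccl24 were not in it. The motif with 4 bases between occurred in 6.95% of all 32851 promoters of the same length and in those of Retnla and Ccl17. TTCNNNGAA occurred in 8.30% of all promoters and in those of Chi3l3, whose present symbol is Chil3, and Ccl17. The 3 promoters are shown with the matches in capitals, 5' to 3' on the strand of the gene. That of Retnla is chr16:48842359-48842658 on the + strand, with the match 145 to 136 bases before the start. That of Ccl17 is chr8:94810203-94810502 on the + strand, with the motif of the wider spacing at 154 to 145 and TTCNNNGAA at 99 to 91 bases before the start. The starts of the table for Ccl17 and Cd163 lie inside the spans that the gene annotation gives for these genes, so that positions count from the start of the table. That of Chil3 is chr3:106167515-106167814 on the - strand, with the match 172 to 164 bases before the start.
Retnla: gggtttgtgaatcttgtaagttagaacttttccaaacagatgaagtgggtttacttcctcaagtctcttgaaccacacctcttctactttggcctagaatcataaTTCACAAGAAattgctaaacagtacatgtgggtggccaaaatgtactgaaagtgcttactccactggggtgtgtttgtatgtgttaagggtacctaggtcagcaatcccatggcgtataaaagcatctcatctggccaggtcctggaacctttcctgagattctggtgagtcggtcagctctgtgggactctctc
Ccl17: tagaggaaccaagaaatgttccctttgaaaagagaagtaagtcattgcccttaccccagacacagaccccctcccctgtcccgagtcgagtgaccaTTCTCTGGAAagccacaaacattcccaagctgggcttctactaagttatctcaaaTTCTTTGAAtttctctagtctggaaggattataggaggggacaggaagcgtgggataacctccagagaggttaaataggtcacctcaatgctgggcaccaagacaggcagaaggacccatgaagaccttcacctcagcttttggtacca
Chil3: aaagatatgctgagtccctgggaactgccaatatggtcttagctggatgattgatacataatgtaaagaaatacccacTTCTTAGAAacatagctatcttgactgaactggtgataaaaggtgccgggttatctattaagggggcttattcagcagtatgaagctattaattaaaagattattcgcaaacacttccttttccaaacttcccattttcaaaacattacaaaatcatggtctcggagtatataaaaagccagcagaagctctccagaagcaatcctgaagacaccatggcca
All 3 genes were lower in KCs. Mrc1, Cd163 and Ccl22 had neither motif in these windows, which says only that the letters are not there. The promoters of Mrc1 (chr2:14229164-14229463, + strand) and Cd163 (chr6:124304401-124304700, + strand) are shown as well, and they hold no match to mark. In KCs these 2 genes had the highest correlation among the pairs of the 9 genes.
Mrc1: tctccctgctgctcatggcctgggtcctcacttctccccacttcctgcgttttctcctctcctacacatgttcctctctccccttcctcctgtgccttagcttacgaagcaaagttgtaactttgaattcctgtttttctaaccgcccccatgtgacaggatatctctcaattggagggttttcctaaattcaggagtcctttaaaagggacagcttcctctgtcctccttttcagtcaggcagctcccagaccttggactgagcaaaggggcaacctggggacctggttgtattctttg
Cd163: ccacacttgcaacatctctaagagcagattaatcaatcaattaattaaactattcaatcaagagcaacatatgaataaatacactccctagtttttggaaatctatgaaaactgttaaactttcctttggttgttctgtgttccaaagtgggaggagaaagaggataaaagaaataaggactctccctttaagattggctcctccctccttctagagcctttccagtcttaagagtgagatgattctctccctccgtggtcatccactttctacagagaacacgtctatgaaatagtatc

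Retnla and Chi3l3 encode secreted proteins of alternatively activated mouse macrophages, a resistin-like molecule (also called FIZZ1) and a chitinase-like lectin (also called Ym1). Retnla lies at chr16:48842609-48844461 of GRCm38.p6. It had 17224, 16254, 14149, 16465, 17753 and 22138 normalized counts in MNC samples 1 to 6. In KCs it was above the background in sample 1, at 14.4, and in sample 3, at 21.4, each from 11 counted molecules, and was listed at the background of 14, 12, 14 and 7 in samples 2, 4, 5 and 6. The groups were far apart, and the MNC samples differed among themselves by no more than 1.56 times. The log2 fold change of Retnla was -10.24 (standard error 0.21, adjusted p = 7.68e-14), the largest fall on the panel by the listed values, and the ratio of geometric means was 1213 by the listed values and 773 where each KC sample at the background took its listed or its multiplied background, whichever was higher.

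Chi3l3 (chr3:106147554-106167564) had 191, 167, 347, 673, 916 and 452 normalized counts in MNC samples 1 to 6. In KC samples 1 to 6 it had 43.1, 132, 101, 125, 78.3 and 50.7. All KC samples were below all MNC samples, but the lowest MNC sample was close to the highest KC sample. In MNCs the highest sample was 5.50 times the lowest, the widest spread of any member in either cell type, and in KCs 3.06 times. Chi3l3 was 4.65-fold higher in MNCs, with -2.22 on the log2 scale (standard error 0.43, adjusted p = 0.000571).

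Arg1 and Nos2 both use arginine: arginase 1 splits it to ornithine and urea, and inducible nitric oxide synthase makes nitric oxide from it. Arginase 1 is also the urea cycle enzyme of hepatocytes. Arg1 (chr10:24915207-24927470) had 200.1, 171, 140.1, 351, 135 and 212 normalized counts in MNC samples 1 to 6. In KC samples 1 to 6 it had 891, 1606, 976, 3259, 1263 and 1991. The lowest KC sample was above the highest MNC sample, and MNC sample 4 and KC sample 4 were the highest of their groups. Arg1 was 7.83-fold higher in KCs, with 2.97 on the log2 scale (standard error 0.32, adjusted p = 2.74e-06).

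Nos2 (chr11:78920787-78960226) was at the background in 5 of 6 MNC samples, at 22, 21, 16, 22 and 27, and had 13.5 normalized counts, from 12 molecules, in MNC sample 2, whose background was the lowest. In KC samples 1 to 6 it had 32.6, 25.6, 44.8, 55.2, 39.1 and 59.2 normalized counts. These rest on 14 to 28 counted molecules, and the 14 molecules of KC sample 2 equal the background count of that lane. KC sample 2 lies below MNC sample 6, so that the groups overlap. The log2 fold change of Nos2 was 1.02 (standard error 0.22, adjusted p = 0.00145). With 1 common floor of 30.4 for all samples it was 0.46, and with the background multiplied by the factor of the lane 1.55, both past the threshold.

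Mrc1, the mannose receptor CD206, and Cd163, the receptor for haemoglobin bound to haptoglobin, are endocytic receptors of resident macrophages. Mrc1 is also made by the sinusoidal endothelium of the liver. Mrc1 (chr2:14229414-14332023) had 370, 332, 313, 320, 335 and 440 normalized counts in MNC samples 1 to 6 and 286, 1014, 481, 861, 583 and 442 in KC samples 1 to 6. KC sample 1 was the lowest of all 12, and KC samples 2 and 4 were the highest. Cd163 (chr6:124304636-124330529) had 78.6, 76.6, 84.8, 52.3, 65.2 and 110 in MNC samples 1 to 6 and 87.4, 309, 123, 295, 163 and 125 in KC samples 1 to 6. Only KC sample 1 lay below the highest MNC sample. Both genes varied more in KCs, with a highest sample 3.55 times the lowest for Mrc1 and 3.53 times for Cd163, against 1.40 and 2.10 times in MNCs.

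The log2 fold change of Cd163 was 1.11 (standard error 0.30, adjusted p = 0.00691). That of Mrc1 was 0.68 (standard error 0.26, adjusted p = 0.0403), with a 95% interval from 0.11 to 1.25. The call of Mrc1 was lost when any of MNC samples 1, 3, 4 and 5 or KC samples 2, 4 and 5 was left out, with adjusted p up to 0.0837, and after rescaling each sample to the median of its genes, where the log2 fold change was 0.42 (adjusted p = 0.115). Without KC sample 1 it was 0.87 (adjusted p = 0.00443). The exact permutation test over samples gave Mrc1 an adjusted p of 0.0617.

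Ccl17 and Ccl22 attract T cells through the receptor Ccr4, and Ccl24, or eotaxin-2, attracts eosinophils through Ccr3. Ccl17 (chr8:94809380-94812038) had 42.9, 40.5, 42.4, 26.1, 35.5 and 30.5 normalized counts in MNC samples 1 to 6, from 36 to 63 molecules. In KCs it was at the background in all 6 samples, listed at 9, 14, 9, 12, 14 and 7. Ccl17 was therefore at least 1.76-fold higher in MNCs, with each KC sample set to its listed or its multiplied background, whichever was higher. At these raised values the groups overlap. The fit gave -1.67 (standard error 0.19, adjusted p = 4.66e-06) on the listed values and -0.82 with the multiplied background, past the threshold in both. The KC spread in these fits is that of the negative controls and not of Ccl17.

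Ccl22 (chr8:94745684-94751388) lies 57991 bases from Ccl17 with 1 protein-coding gene, Cx3cl1, in between. It had 31.5, 21.4, 25.6, 24.9, 39.1 and 31.0 normalized counts in MNC samples 1 to 6. In KCs it was above the background in samples 1, 4 and 6, at 26.1, 38.2 and 16.9, and at it in samples 2, 3 and 5, at 14, 9 and 14. KC sample 4 was nearly as high as the highest MNC sample, and the groups overlap. The log2 fold change of Ccl22 was -0.65 (standard error 0.29, 95% interval -1.27 to -0.03, adjusted p = 0.0668). It passed the threshold without MNC sample 2 (adjusted p = 0.0427), without KC sample 1 (adjusted p = 0.0474) or without KC sample 4 (adjusted p = 0.00753), as it did after rescaling to the median gene (-0.90, adjusted p = 0.0127) and after quantile normalization (-1.26, adjusted p = 0.000139). With the multiplied background it was -0.19 and did not pass.

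Ccl24 (chr5:135569935-135573123) had 739, 687, 578, 1126, 725 and 1128 normalized counts in MNC samples 1 to 6. In KC samples 1 to 6 it had 91.3, 185, 79.9, 210.4, 120 and 90.9. The groups were well apart, with MNC samples 4 and 6 and KC samples 2 and 4 the highest of their groups. Ccl24 was 6.62-fold higher in MNCs, with -2.73 on the log2 scale (standard error 0.27, adjusted p = 1.07e-06). Of the receptors, Ccr3 was higher in KCs, at 70.1 to 203 normalized counts against 17.6 to 27 in MNCs with 4 of 6 at the background (log2 fold change 2.48, adjusted p = 7.34e-07). Ccr4 was higher as well, at 29.2 to 76 against 13.5 to 27.9 with 3 of 6 at the background (log2 fold change 1.04, adjusted p = 0.00262), but not after quantile normalization (0.58, adjusted p = 0.144). Ccl11, another ligand of Ccr3, was at the background in all 12 samples.

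**Figure D2:**
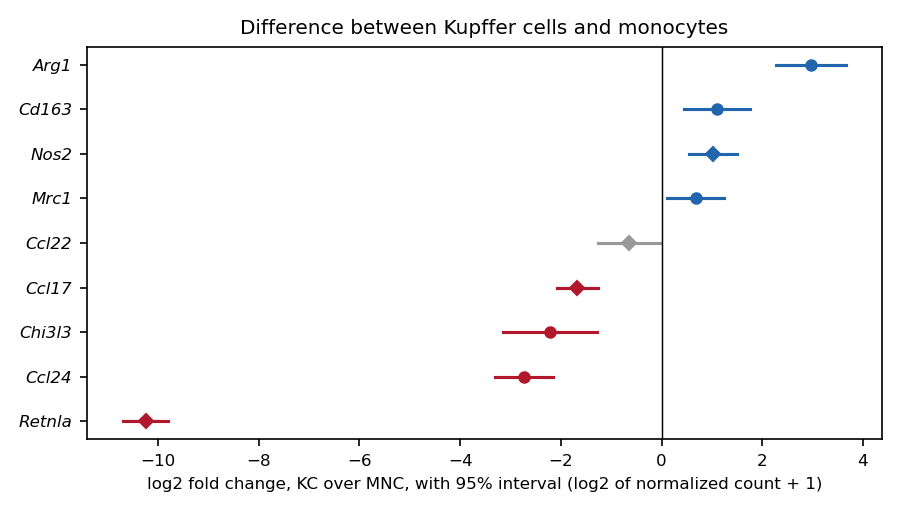
Log2 fold change, KC over MNC, of the 9 genes with its 95% interval from limma on log2(normalized count + 1). Blue is higher and red lower in KCs at an adjusted p under 0.05, grey did not pass, and diamonds mark genes with at least 1 sample at the background. Arg1 at 2.97 and Retnla at -10.24 are the ends of the range.

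The covariation of the genes between samples was examined inside each cell type, over the members above the background in all 6 of its samples. These were 8 genes and 28 pairs in MNCs, all members but Nos2, and 6 genes and 15 pairs in KCs, where Retnla, Ccl17 and Ccl22 were left out. In KCs 11 of 15 pairs had a positive Pearson's r of the log2 values, with a median of 0.70. Over all pairs of panel genes above the background in KCs 60.6% were positive and the median r was 0.20. In MNCs 17 of 28 pairs were positive with a median of 0.12, beside 54.9% positive and a median of 0.14 over all gene pairs. After rescaling each sample to the median gene the medians were 0.54 for the members and 0.18 for all pairs in KCs, and 0.25 and 0.06 in MNCs, where the members then lay above all pairs. The exact permutation p over the 720 pairings of the samples was under 0.05 for 5 pairs in KCs (33.3%; 14.0% of all gene pairs in KCs) and for 3 pairs in MNCs (10.7%; 28.4% of all gene pairs in MNCs). None of the 43 pairs passed after Benjamini-Hochberg adjustment, with a smallest adjusted p of 0.119. A lone pair at the smallest p that 6 samples allow, 0.00139, would have an adjusted p of 0.0597.

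**Figure D3:**
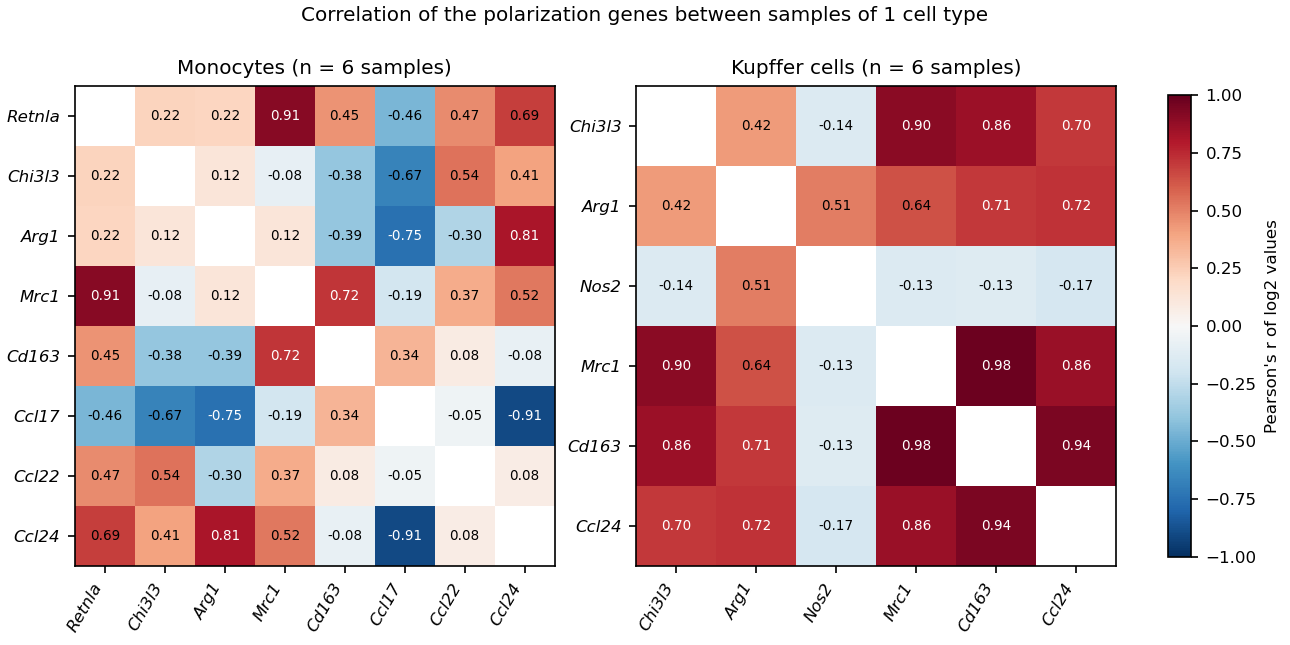
Pearson's r of log2(normalized count + 1) between pairs of genes over the 6 MNC samples (left) and the 6 KC samples (right), for genes above the background in all 6. In KCs Chi3l3, Arg1, Mrc1, Cd163 and Ccl24, the genes shown other than Nos2, are positively correlated in all 10 of their pairs. These pairs share genes and samples, and 60.6% of all gene pairs in KCs are positive. Nos2 has r of -0.13 to -0.17 with all but Arg1, which turns positive without KC sample 2. In MNCs the signs are mixed, from 0.91 for Retnla and Mrc1 to -0.91 for Ccl17 and Ccl24.

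In KCs the scavenger receptors varied together most closely. Mrc1 and Cd163 had r = 0.98 (exact permutation p = 0.00278, adjusted p = 0.119, rho = 0.94, exact p = 0.0167), and r was 0.99 without the 2 samples farthest from the median of Mrc1 and 0.97 after rescaling to the median gene. KC samples 2 and 4 were the highest and KC sample 1 the lowest in both genes. Cd163 and Ccl24 had r = 0.94 (exact p = 0.0139, adjusted p = 0.191, rho = 0.77, exact p = 0.103), and r fell to 0.60 without the 2 farthest samples. Mrc1 and Ccl24 had r = 0.86 (exact p = 0.0333, adjusted p = 0.222, rho = 0.71, exact p = 0.136), and r was 0.97 without the 2 farthest.

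Chi3l3 followed the same samples. With Mrc1 it had r = 0.90 (exact p = 0.0181, adjusted p = 0.191, rho = 0.94, exact p = 0.0167) and 0.77 without the 2 farthest samples, and with Cd163 r = 0.86 (exact p = 0.0486, adjusted p = 0.261, rho = 0.83, exact p = 0.0583) and 0.75 without them. Arg1 was positively correlated with all other members in KCs, at r of 0.42 to 0.72, none with a p under 0.05. Arg1 and Nos2 had r = 0.51 (exact p = 0.308, adjusted p = 0.698, rho = 0.54, exact p = 0.297), and r fell to 0.12 without the 2 farthest. Nos2 had r of -0.13 to -0.17 with the other 4 genes, but this sign rests on KC sample 2. Without it r was 0.60 with Mrc1, 0.56 with Cd163, 0.34 with Ccl24 and 0.38 with Chi3l3. Without the 2 samples farthest from the median of Nos2, KC sample 2 among them, r was 0.90 with Mrc1, 0.88 with Cd163 and 0.69 with Ccl24. For Chi3l3 the 2 samples farthest from the median of Chi3l3 were left out instead. KC sample 2 is then kept, and r was -0.17. The 14 to 28 counted molecules of Nos2 per KC sample limit how well Nos2 can be ranked.

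In MNCs other pairs stood out. Retnla and Mrc1 had r = 0.91 (exact p = 0.0139, adjusted p = 0.191, rho = 0.89, exact p = 0.0333), but r fell to 0.45 without the 2 farthest samples and to 0.65 without MNC sample 6, which was the highest in both. Arg1 and Ccl24 had r = 0.81 (exact p = 0.0361, adjusted p = 0.222, rho = 0.77, exact p = 0.103) and 0.86 without the 2 farthest. Ccl17 and Ccl24 had r = -0.91 (exact p = 0.0222, adjusted p = 0.191, rho = -0.60, exact p = 0.242), which fell to -0.39 without the 2 farthest, so this relation rests on those samples. Ccl17 and Ccl22, neighbours on chromosome 8, had r = -0.05 (exact p = 0.947, adjusted p = 0.947, rho = 0.20, exact p = 0.714).

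For the 10 pairs measured in both cell types the difference of r itself was tested by exchanging samples between the cell types after standardizing each gene within its cell type. The smallest p and the largest difference were those of Chi3l3 and Cd163, with r = -0.38 in MNCs and 0.86 in KCs (exact permutation p = 0.0476, adjusted p = 0.281). By size Arg1 and Cd163 came next, with -0.39 and 0.71 (exact p = 0.253, adjusted p = 0.554), then Cd163 and Ccl24, with -0.08 and 0.94 (exact p = 0.171, adjusted p = 0.554), and Chi3l3 and Mrc1, with -0.08 and 0.90 (exact p = 0.0563, adjusted p = 0.281). Mrc1 and Cd163 had 0.72 and 0.98 (exact p = 0.277, adjusted p = 0.554). None of the 10 differences passed after adjustment.

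The genes of the panel whose pattern between samples was most like that of a member are given as a description over 6 samples, with no test. In KCs Cd163 was most like Ptgs1 (r = 0.99) and C1qb (0.99), and Mrc1 was most like Ptgs1 (0.99) and C1s (0.99). Chi3l3 was most like Cxcl2 (0.99), Tlr8 (0.99) and Tyrobp (0.97), and Arg1 like Cxcl1 (0.97), Mafg (0.93) and Flt1 (0.91). Nos2 had no gene closer than Map2k6 (0.84). In MNCs Ccl24 was most like C3ar1 (1.00), Cebpb (1.00) and C1qa (0.99), Arg1 like Fos (0.97), Il1a (0.92) and Ccl2 (0.92), and Mrc1 like Ccr2 (0.97), the chemokine receptor of inflammatory monocytes. Chi3l3, the most variable member in MNCs, had no gene closer than Il18 (0.64). These points share the lane factor of each sample.

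Markers of other cells were set against the members in the same way, as the mean log2 value of a list, over 48 relations between members and the hepatocyte, T and NK cell, monocyte and isolation response lists, of which 5 had an adjusted p under 0.05. In KCs the hepatocyte genes rose and fell with Mrc1 (r = 0.97, exact p = 0.00139, adjusted p = 0.0222, rho = 1.00, exact p = 0.00278, 0.90 without the 2 farthest samples) and with Cd163 (r = 0.93, exact p = 0.00278, adjusted p = 0.0333, rho = 0.94, exact p = 0.0167, 0.87 without them). KC sample 1 had the lowest and KC sample 2 the highest hepatocyte sum, as they did for Mrc1 and Cd163. With Arg1 the hepatocyte genes had r = 0.58 (exact p = 0.247, adjusted p = 0.516, rho = 0.54, exact p = 0.297, 0.47 without the 2 farthest), and Nos2 had r = -0.12 (exact p = 0.817, adjusted p = 0.891, rho = -0.26, exact p = 0.658, -0.24 without them). The 5 monocyte genes followed Chi3l3 in KCs with r = 0.99 (exact p = 0.00139, adjusted p = 0.0222, rho = 1.00, exact p = 0.00278, 0.99 without the 2 farthest). The only endothelial gene of the list on the panel, Flt1, had 52.2 to 151 normalized counts in KCs and was at the background in 5 of 6 MNC samples.

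In MNCs Ccl24 rose with the 5 monocyte genes (r = 0.94, exact p = 0.00139, adjusted p = 0.0222, rho = 1.00, exact p = 0.00278, 0.88 without the 2 farthest samples). It ran against the T and NK cell genes (r = -0.96, exact p = 0.00417, adjusted p = 0.0400, rho = -0.94, exact p = 0.0167, -0.75 without the 2 farthest). MNC samples 4 and 6 had the lowest T and NK cell sums, 5399 and 4338, and the highest Ccl24. Retnla had r = -0.73 with the T and NK cell genes (exact p = 0.0736, adjusted p = 0.236, rho = -0.60, exact p = 0.242, -0.61 without the 2 farthest). None of the 48 relations had an adjusted p under 0.05 after rescaling each sample to the median gene, where r was 0.95 for Mrc1 and 0.88 for Cd163 with the hepatocyte genes in KCs and 0.96 and -0.86 for Ccl24 with the monocyte and the T and NK cell genes in MNCs. The part of other cells in the differences between MNCs and KCs was not tested.

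**Figure D4:**
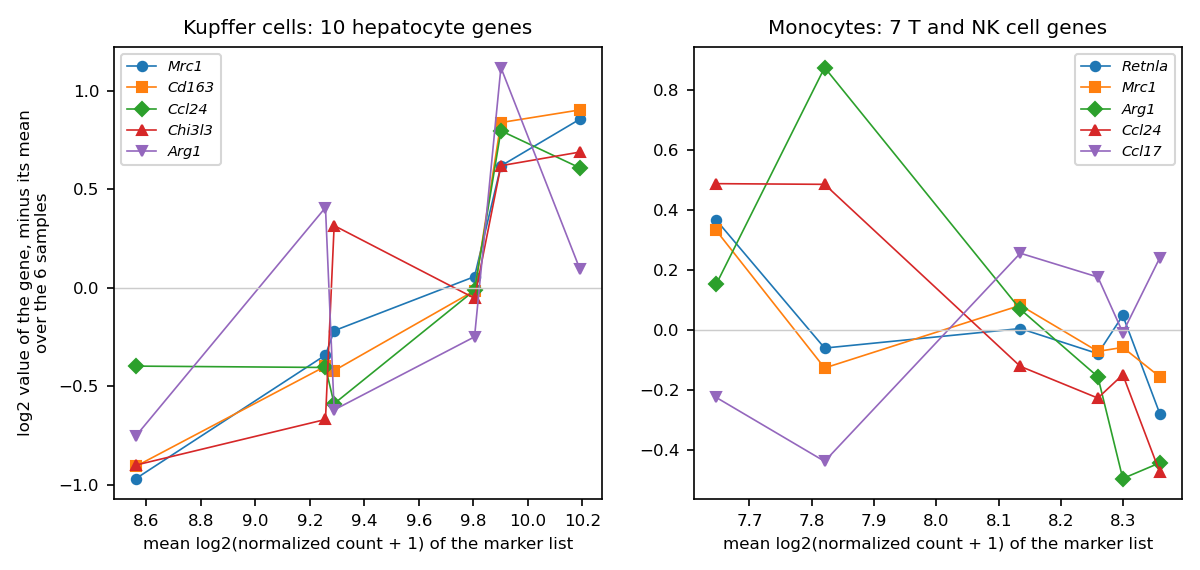
Left, log2 values of Mrc1, Cd163, Ccl24, Chi3l3 and Arg1 in the 6 KC samples, each minus its mean, against the mean log2 level of 10 hepatocyte genes. Right, the same for Retnla, Mrc1, Arg1, Ccl24 and Ccl17 in the 6 MNC samples against 7 T and NK cell genes above the background. Lines join samples in the order of the list; Mrc1 (r = 0.97) and Cd163 (0.93) climb with the hepatocyte genes in KCs, and Ccl24 (-0.96) falls with the T and NK cell genes in MNCs.

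The other genes of the 2 programmes on the panel also went in both directions, and 66.7% of the M1 and 54.5% of the M2 list passed the test, beside 56.5% of the panel. Of 18 further M1-associated genes 6 were higher and 6 lower in KCs and 6 did not pass, with a median log2 fold change of -0.56. Of 11 further M2-associated genes 2 were higher and 4 lower and 5 did not pass, with a median of -0.52. These splits depend on the scaling and on the background: they were 6 and 10 (M1) and 1 and 8 (M2) after rescaling to the median gene, which moves the median of all genes by -0.26, and 8 and 6 (M1) and 5 and 3 (M2) with the multiplied background, where the medians were -0.10 and 0.23.

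Of the M1 genes, Ifng, the cytokine of T and NK cells that drives M1 activation, had 263 to 374 normalized counts in KCs and 20.7 to 32.7 in MNCs (log2 fold change 3.53, standard error 0.14, adjusted p = 2.07e-10). Cxcl9 and Cxcl10, chemokines induced by interferon gamma, were higher in KCs as well. Cxcl9 had 78.0 to 801 normalized counts there and was at the background in 5 of 6 MNC samples (2.75, adjusted p = 0.000213), and Cxcl10 had 110 to 438 against 21 to 62.6 (2.24, adjusted p = 0.000109). Il6, an inflammatory cytokine, was lower in KCs (-1.99, adjusted p = 7.88e-05), as were Tlr2, a receptor for bacterial lipoproteins (-1.84, adjusted p = 1.18e-05), and Cd86, a costimulatory molecule (-1.12, adjusted p = 0.000171). Of the 8 T and NK cell genes named above 5 were also called higher in the KC samples. The part of T and NK cells in the level of Ifng was not tested.

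Of the M2 genes, Csf1, a growth factor of macrophages, was higher in KCs (1.21, adjusted p = 0.000326), and Stat3 was higher by 0.33 (adjusted p = 0.0246; 0.07 and adjusted p = 0.628 after rescaling to the median gene). Alox15, a lipoxygenase induced by interleukin-4, had 102 to 296 normalized counts in KCs against 5379 to 8562 in MNCs (-5.00, standard error 0.24, adjusted p = 9.62e-10). It was far lower in KCs, as Retnla was. Cebpb, a transcription factor of the myeloid line, was lower too (-1.48, adjusted p = 1.51e-05). The other 2 genes called lower, Trem2 and Il13, the latter named after its values were seen, were at the background in all 6 KC samples and in 4 and 5 of 6 MNC samples, and with the multiplied background Trem2 had a log2 fold change of 0.23 (adjusted p = 0.370), so no direction can be read for it. Il4, the gene of interleukin-4, had a log2 fold change of 0.16 (adjusted p = 0.631), with 5 of 6 MNC samples at the background.

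**Figure D5:**
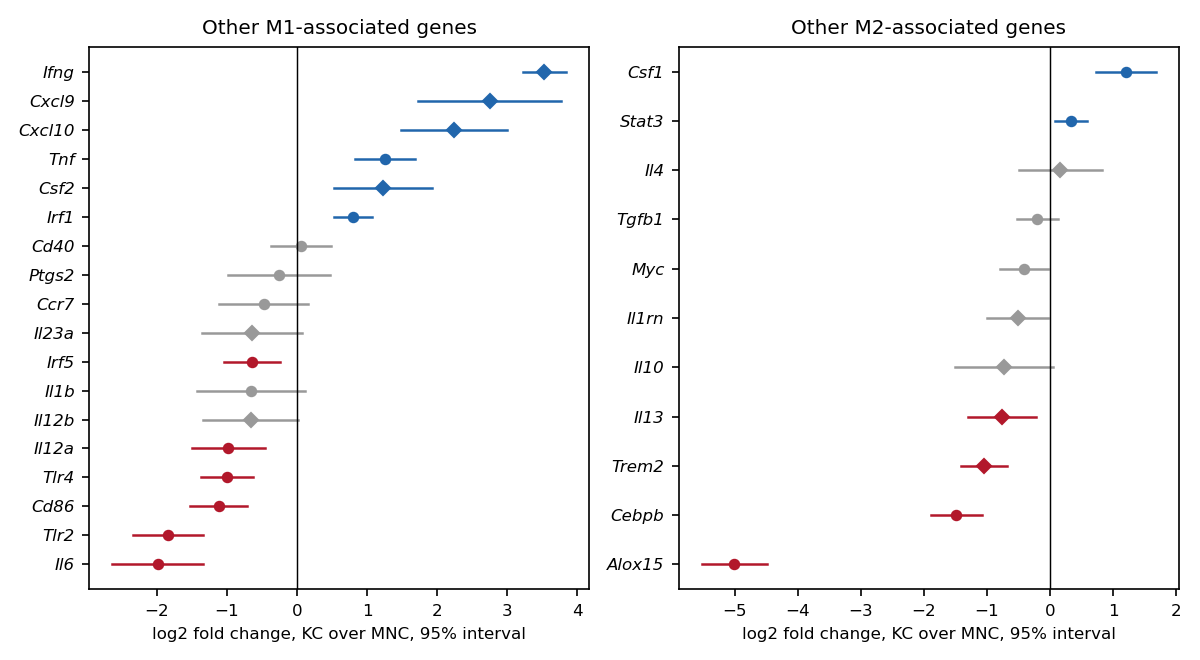
Log2 fold change, KC over MNC, with its 95% interval for 18 other M1-associated genes (left) and 11 other M2-associated genes (right). Blue is higher and red lower in KCs at an adjusted p under 0.05, grey did not pass, and diamonds mark genes with at least 1 sample at the background. Both lists hold genes on each side of 0, from Ifng (3.53) to Il6 (-1.99) and from Csf1 (1.21) to Alox15 (-5.00).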

How the data were processed

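A nanostring panel for mouse inflammation (nCounter, V2) measured the mRNA of 248 genes by counting colour-coded probes without amplification in 6 MNC and 6 KC samples, grouped by the labels. Each deposited value is a signal, that is, a count that the authors normalized in nSolver with positive controls and housekeeping genes. Genes under the highest of 8 negative controls hold that control's count without the lane factor. The lane factor was recovered as the largest step that divides all higher values (to within 0.02 normalized counts). Dividing by it gave the counted molecules of values above the background. The tests used the deposited values, with no count model.

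limma 3.58.1 in R 4.3.3 was fitted to log2(value + 1) of all 12 samples, with Benjamini-Hochberg adjustment over 248 genes, a two-sided test and a threshold of 0.05. The added 1 lowers the fold changes of low genes, whereas the listed background raises that of genes lower in KCs. Adjusted p-values are from this fit unless another test is named. Correlations were tested by exact two-sided permutation in Python 3.11.15 (scipy 1.17.1) over genes above the background in all 6 samples. Tested on simulated data for KC against MNC with 248 genes, the fit recovered 39 of 40 changed genes and called 1 of 208 others. The changed genes had mean levels above the background, and no background was simulated. Their changes were larger in size than those of Mrc1, Ccl22, Nos2, Cd163 and Ccl17. The recovery therefore does not apply to changes as small as these or to genes near the background.

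The genes and lists were chosen with earlier results of these data known. Of the M1 and M2 lists the 3 largest called changes in each direction are named, and the 3 genes most like a member, or fewer. Il4 and Il13 were named after their values were seen, and 1 listed gene is not reported here. The hepatocyte, T and NK cell, monocyte, macrophage, platelet, granulocyte, endothelial and isolation response lists served as markers. Alternatives concerned the pseudocount, low values, scaling, background, a replicate block, the test and left-out samples. Samples were not identical in any pair (at least 173 genes differed). The miRNA and protein measurements were not used here.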

Additional observations from a re-analysis of the deposited data

How the results depend on the processing

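The 9 log2 fold changes kept their sign in all 22 alternatives. 7 genes kept their call in all 22; Mrc1 lost it in 12 (log2 fold change 0.23 to 0.70 in these) and Ccl22 gained it in 6 (-1.26 to -0.73 in these). 3 to 4 members were called higher and 4 to 5 lower when 1 sample was left out. The pairs of members were recomputed with another pseudocount, after rescaling to the median gene, without Gapdh, with Spearman's rho and with each sample left out, and 0 passed the adjustment in each; leaving a sample out leaves 5 samples and a coarser smallest p. Of the 48 relations with marker lists, 5 passed, 0 after rescaling to the median gene and 3 with Spearman's rho; the cause was not tested.

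Sample numbers are shared by the groups, and the deviations of same-numbered samples gave mixed correlations (r from -0.23 to 0.40, 3 of 6 over 0.1, 2 of 6 closest to their own number). These values do not settle whether the samples are paired by number. With the replicate number as a block 3 members were higher and 4 lower, since Mrc1 had an adjusted p of 0.0741, and the panel had 83 genes higher and 49 lower. On the panel 87 genes were called higher and 53 lower, against 68 and 108 after rescaling to the median gene, 63 and 69 after quantile normalization, 140 and 48 with the multiplied background and 86 and 86 without MNC sample 2. Without MNC sample 2 and KC sample 1, an alternative chosen after seeing the data, 4 members were higher and 5 lower, Ccl22 among them (adjusted p = 0.0264).

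Nos2, Ccl17, Ccl22 and Retnla in KCs lie near the background of their lanes, which the table lists on another scale than the values above it. Over the listed, multiplied and common background the fold change was 1.02, 1.55 and 0.46 for Nos2 and -1.67, -0.82 and -0.26 for Ccl17.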
